A study of Rattus norvegicus with 24 samples.

Results

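The cerebellum was set against the hippocampus of the same rat pups at postnatal day (PND) 14, after their mothers had been given Aroclor 1254, a commercial mixture of polychlorinated biphenyls. The comparison was chosen by its labels: 3 dosed cerebellum arrays minus 3 dosed hippocampus arrays, matched by the number of the dam, which makes 6 of the 24 arrays of the series. The rats were Long Evans males. The dams of these pups, numbered 12, 15 and 18, received 6 mg/kg/day by oral gavage in corn oil from gestation day 6 onward, and 1 male pup was taken from a litter at each age, so both tissues of a dam come from 1 pup. The undosed pups set beside them had mothers given 0 mg/kg/day in corn oil, dams 1 and 7 at PND14, and the younger dosed pups were taken at PND7 from the same 3 dams. No group was a single cell type: each array holds RNA of a whole dissected tissue. The series asks how the mixture alters gene expression in these developing brain regions, and the present comparison asks which genes distinguish them in exposed animals.

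The cerebellar cortex is built largely of small excitatory granule cells and a single layer of large inhibitory Purkinje cells, its only output neurons. In the rodent its granule cells are still being born and are migrating inward in the second postnatal week, under the control of thyroid hormone among other signals. The hippocampus is a forebrain structure of pyramidal neurons and dentate granule cells with many kinds of inhibitory interneurons, and most of its pyramidal neurons are born before birth.

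Values are log2 expression values for each probe set, a group of probes that reports 1 transcript, as the authors deposited them. A difference is cerebellum minus hippocampus within a pup, so 1 unit is a 2-fold change and a positive value means a higher level in cerebellum. Differences are means of 3 pups given with a limma standard error (SE), which rests on the spread estimated over the 11 pups of the fit and so can be smaller or larger than the spread of these 3, and p-values from limma's paired fit carry a Benjamini-Hochberg adjustment across the 10330 probe sets that passed a filter on low values. A gene is called at an adjusted p under 0.05. Where several probe sets report a gene, the one with the highest mean stands for it. The 6 arrays had medians of 7.42 to 7.47. Correlation was 0.959 to 0.983 among the cerebellum arrays, 0.976 to 0.994 among the hippocampus arrays and 0.854 to 0.876 between the tissues. The female-specific transcript Xist lay at 4.09 to 4.22 in all 6 arrays, while in undosed pups at PND14 it was 10.76 in cerebellum and 8.98 in hippocampus of the pup of dam 1, against its male label, and 4.07 and 4.14 in the pup of dam 7. The undosed cerebellum array of dam 13 stood apart, with a median of 7.908 and correlations of 0.396 to 0.468 with the others, and was left out of the fit.

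The pup of dam 15 stood apart from the other 2 dosed pups in both tissues. In it, 18 genes were more than 2-fold higher and 2 more than 2-fold lower than the mean of the other pups in cerebellum and in hippocampus alike, against 1 and 3 genes for the pup of dam 12 and 0 and 0 for that of dam 18. At 1.5-fold the counts for the pup of dam 15 were 64 higher and 60 lower, so the excess of higher genes is seen at 2-fold and not at the smaller size. Mt2A, a metallothionein that binds metals, was at 11.97 in its cerebellum and 11.42 in its hippocampus, against 9.12 and 9.26 in the other cerebella and 9.86 and 9.95 in the other hippocampi. Txnip, a thioredoxin inhibitor, was at 11.71 and 10.48, against 9.91 and 9.70 in the other cerebella and 8.72 and 8.61 in the other hippocampi. Alas2, an enzyme of haem synthesis in red cells, was at 10.97 and 9.34, against 8.31 and 8.33, and 8.11 and 8.18. Tnc, an extracellular matrix glycoprotein, went the other way, at 7.91 and 6.74 against 9.51 and 8.98, and 8.08 and 7.63. Apart from this pup, the cerebellum array of dam 12 stood apart in genes of the choroid plexus, the tissue that secretes cerebrospinal fluid: Ttr, its thyroid hormone carrier, was at 7.02 there and at 13.16 and 13.28 in the other cerebella. Mt2A, Txnip, Tnc and Ppp2r2c are named here after their values were seen. For some of the results that rest on these pups, values without them are given as well.

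**Figure D1:**
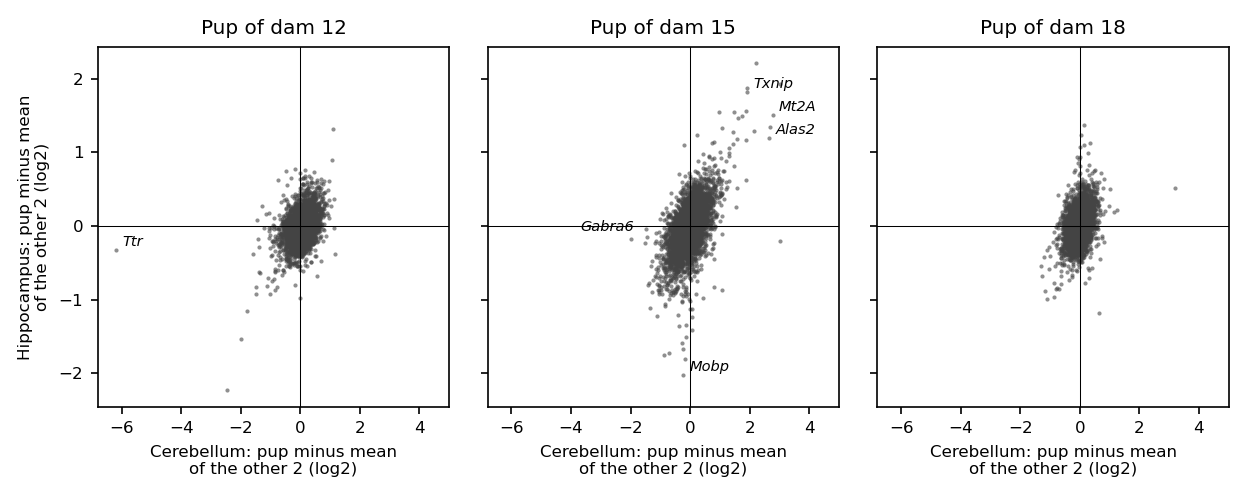
Departure of each dosed PND14 pup from the mean of the other 2 pups, in cerebellum (x axis, log2) and hippocampus (y axis, log2), with 1 point per gene tested (7474 genes). The panel of dam 15 has 18 genes beyond 1 on both axes in the upper right corner, and the panel of dam 12 has Ttr alone at the far left.

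Of 7474 genes tested, 4115 were called (55.1%), with 2206 higher in cerebellum (29.5%) and 1909 higher in hippocampus (25.5%). By probe set the share called was 55.6%. Differences of more than 2-fold were called for 306 genes toward cerebellum (4.09%) and 330 toward hippocampus (4.42%). The median difference over all genes was 0.01. In 3929 genes (52.6%) the 3 cerebellum values did not overlap the 3 hippocampus values. Because more than 1 gene in 2 was called, the counts of list members below are to be read against these shares, and sizes say more than calls. In whole tissue, fewer cells of a type and less RNA per cell cannot be told apart.

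**Figure D2:**
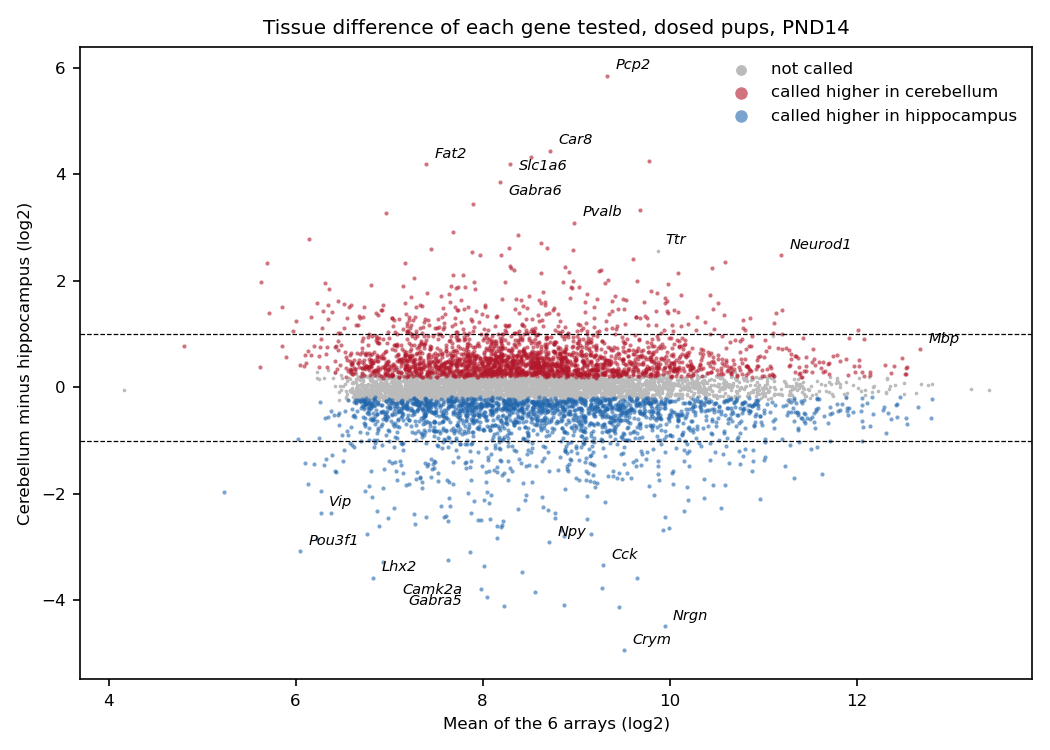
Tissue difference (y axis, cerebellum minus hippocampus, log2) against the mean of the 6 arrays (x axis, log2) for the 7474 genes tested, with called genes in red or blue, others in grey and dashed lines at 2-fold. Pcp2 lies at the top and Crym at the bottom of the genes that have a symbol, and Ttr is grey.

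Among named genes, the largest differences toward cerebellum were those of Pcp2 and Car8, both Purkinje cell genes. Of 31 listed Purkinje cell markers 20 were on the array and 19 were tested. Of these, 17 were higher in cerebellum, 15 of them by more than 2-fold, 0 were lower and Nefh and Shank2, both with a difference of 0.00, were not called. Their median difference was 1.64, against 0.01 over all genes. Pcp2, a Purkinje cell protein that modulates G proteins, was at 12.34, 12.25 and 12.18 in the cerebella of dams 12, 15 and 18 and at 6.54, 6.40 and 6.29 in their hippocampi. Each tissue was tight, with SDs of 0.08 and 0.12. The difference was 5.85 ± 0.10 (SE, limma adjusted p = 1.99e-15), which is 57.8-fold. Car8, a carbonic anhydrase relative that binds the inositol trisphosphate receptor, was at 11.01, 11.04 and 10.80 against 6.58, 6.25 and 6.67, a difference of 4.45 ± 0.12 (adjusted p = 2.09e-13).

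Further Purkinje genes covered glutamate uptake and calcium handling. Slc1a6, the Purkinje cell glutamate transporter, was at 10.34, 10.39 and 10.45 in cerebellum and at 6.12, 6.43 and 6.04 in hippocampus, a difference of 4.20 ± 0.09 (adjusted p = 2.63e-14). Pvalb, the calcium buffer parvalbumin that fast-spiking interneurons of both tissues also carry, was at 10.62, 10.05 and 10.91 against 7.64, 6.85 and 7.81. In both tissues its lowest value was that of the pup of dam 15, and the within-pup differences of 2.98, 3.20 and 3.10 were alike (mean 3.09 ± 0.08, adjusted p = 1.26e-13). Calb1, the calcium buffer calbindin, was higher by 2.36 ± 0.09 although it is listed for dentate granule cells too. Itpr1, the inositol trisphosphate receptor, was higher by 1.74, the P/Q-type channel gene Cacna1a by 1.24 and the T-type channel gene Cacna1g by 1.37.

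The start region of Pcp2 is shown because it was the gene with the largest difference toward cerebellum, and that of Nrgn because it is among the largest toward hippocampus and both genes are on the list of thyroid hormone action. Crym, on the same list, differed more than Nrgn (-4.94 against -4.49) but is not shown. Each line is the 250 bases before the RefSeq transcription start in build GRCr8, on the minus strand, 5′ to 3′: Pcp2 at chr12:6481308-6481557 and Nrgn at chr8:45452418-45452667. Capitals mark AGGTCA, the half-site of nuclear receptors, in Pcp2, and CAGATG or its reverse complement CATCTG, an E-box bound by neuronal basic helix-loop-helix factors, in Nrgn.
Pcp2: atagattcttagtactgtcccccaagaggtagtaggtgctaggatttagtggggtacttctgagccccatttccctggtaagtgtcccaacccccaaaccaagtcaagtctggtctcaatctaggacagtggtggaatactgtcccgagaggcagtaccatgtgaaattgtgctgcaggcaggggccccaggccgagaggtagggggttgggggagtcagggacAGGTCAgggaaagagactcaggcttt
Nrgn: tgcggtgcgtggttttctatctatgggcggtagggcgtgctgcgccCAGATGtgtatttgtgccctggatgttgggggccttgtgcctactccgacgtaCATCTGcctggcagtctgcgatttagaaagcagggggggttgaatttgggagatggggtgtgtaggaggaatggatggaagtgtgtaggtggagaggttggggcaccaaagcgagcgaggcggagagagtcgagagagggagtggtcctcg
AGGTCA, searched on both strands, occurred once before Pcp2 and in 10.4% of the 6897 such windows that matched genes tested by symbol (14.1% of all 33469 in the table). CAGATG occurred 2 times before Nrgn and in 9.03% of windows of genes tested (14% of all). Among the 9 windows found for the 12 genes furthest toward cerebellum, 1 held AGGTCA and 0 held CAGATG, and among the 9 found for the 12 furthest toward hippocampus, 0 held AGGTCA and 2 held CAGATG (Nrgn and Mpped1). The motifs do not overlap each other, and a match is a description of the letters only.

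Granule cell genes were mostly higher in cerebellum as well. Of 25 listed, 17 were tested: 12 were higher in cerebellum, 10 of them by more than 2-fold, 2 were lower and 3 were not called. The median of the list was 1.88, above the 1.64 of the Purkinje cell list. Pax6, a transcription factor of granule cells and their precursors, was at 10.84, 10.53 and 10.67 in cerebellum and 6.54, 6.12 and 6.38 in hippocampus, higher by 4.33 ± 0.12 (adjusted p = 3.87e-13). Cbln1, the secreted synaptic organiser that links granule cell axons to Purkinje cells, was at 11.88, 11.82 and 11.99 against 7.00, 7.98 and 7.98, higher by 4.25 ± 0.16 (adjusted p = 7.03e-12). Its hippocampal spread came from the pup of dam 12. Fat2, a giant cadherin of granule cell axons, was higher by 4.20 ± 0.15, Zic1 by 2.60 ± 0.17 and Neurod1, a differentiation factor that dentate granule cells also use, by 2.48 ± 0.10. The 2 members that were lower in cerebellum were Slc17a7, a vesicular glutamate transporter of most forebrain excitatory neurons, by 1.03, and Calb2, calretinin, by 0.57.

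Gabra6, the GABA-A receptor alpha 6 subunit of mature granule cells, was lower in 1 of the 3 cerebella. It was at 10.57 and 10.61 in the pups of dams 12 and 18 and at 9.14 in that of dam 15, against hippocampal values of 6.47, 6.15 and 6.15. The difference was 3.85 ± 0.21 (adjusted p = 4.65e-10). The same pup had the lowest cerebellar value of Grm4, the presynaptic metabotropic receptor of granule cell axons, at 8.11 against 9.94 and 10.26, and of Gabrd, at 7.49 against 8.83 and 8.43. Its list median in cerebellum lay 0.25 below the mean of the others, and 12 granule genes were higher in cerebellum without this pup too.

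Genes of dividing cells were higher in cerebellum. Of 32 cell cycle genes tested, 29 were higher in cerebellum, 14 of them by more than 2-fold, 1 was lower (Ccne1, by 0.26) and 2 were not called, with a median of 0.87. Cks2, which binds cyclin-dependent kinases, was at 8.75, 7.37 and 8.18 in cerebellum and 6.61, 5.82 and 6.16 in hippocampus, higher by 1.90 ± 0.12 (adjusted p = 1.8e-09). The proliferation antigen Mki67 was at 7.68, 6.81 and 7.52 against 6.17, 5.74 and 6.19, higher by 1.31 ± 0.11 (adjusted p = 1.07e-07). Both genes were lowest in the pup of dam 15 in both tissues, and the cell cycle list of its cerebellum lay 0.50 below the mean of the other pups. Without the pup of dam 12, 24 of the genes were called higher. Of 8 precursor genes tested, 7 were higher, among them Boc, a co-receptor for Sonic hedgehog, by 2.12 ± 0.10, and Mycn, which hedgehog signals induce, by 1.04 ± 0.09, while Ccnd1, at -0.04, was not called.

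Genes with less known roles in either tissue stood among the 12 furthest toward cerebellum as well. Igfbpl1, a secreted relative of the insulin-like growth factor binding proteins, was higher by 3.45 ± 0.14, Mfap4, a microfibril-associated protein, by 3.33 ± 0.09, and Skor1, a corepressor, by 3.28 ± 0.13. Exoc3l1, a relative of an exocyst subunit, was higher by 2.92 ± 0.15.

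**Figure D3:**
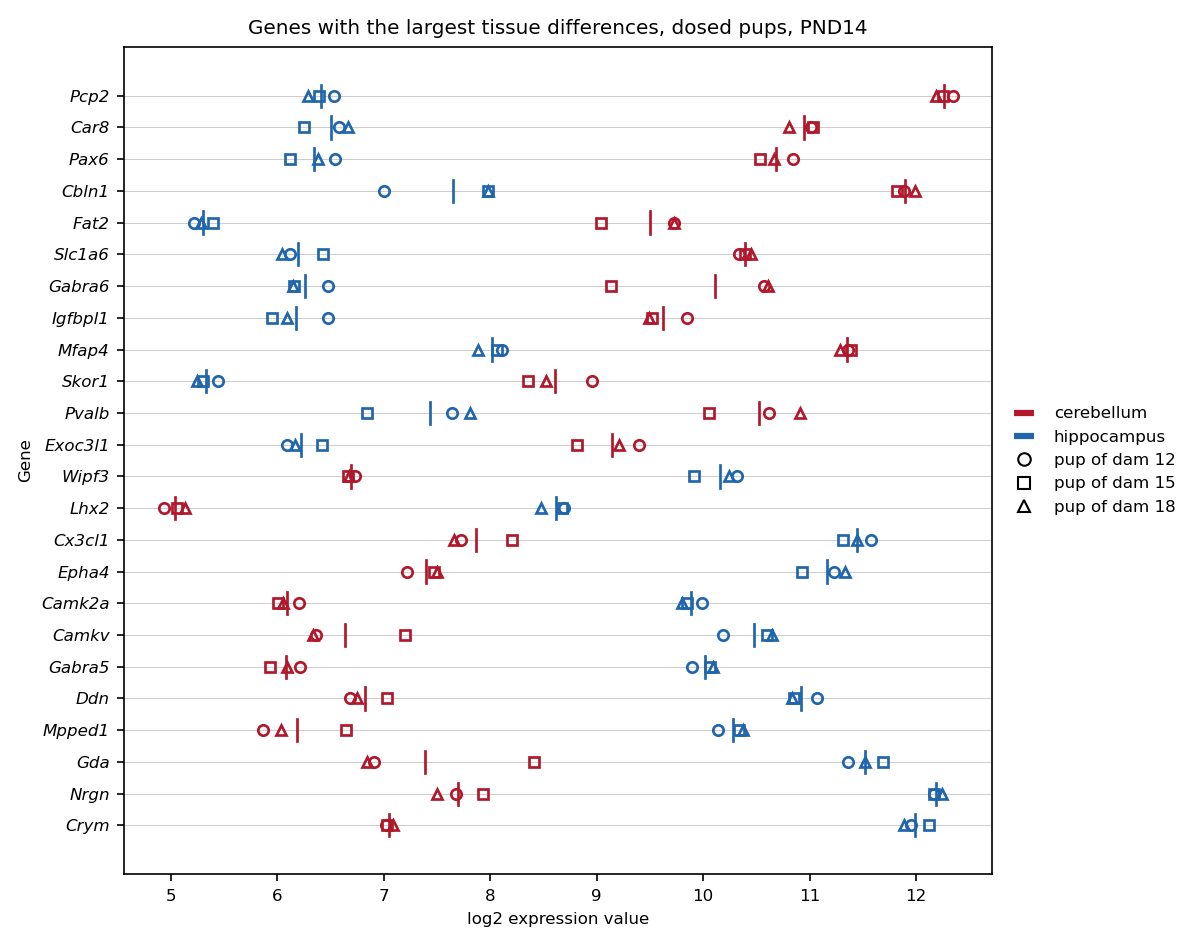
Log2 expression values (x axis) of the 12 genes furthest toward cerebellum and the 12 furthest toward hippocampus (y axis) in the 3 dosed PND14 pups, with a marker shape per dam and a bar at each tissue's mean. Overlap of the tissues barred a gene from these 24, and Gabra6 and Gda show the pup of dam 15 apart from the other cerebella.

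Most pyramidal cell genes were higher in hippocampus. Of 29 listed, 22 were tested: 19 were lower in cerebellum, 14 of them by more than 2-fold, 2 were higher and 1 was not called, with a median of -1.49. Crym, a crystallin that binds thyroid hormone in the cytosol, was at 7.02, 7.03 and 7.09 in cerebellum and at 11.96, 12.12 and 11.89 in hippocampus. Its difference of -4.94 ± 0.09 (adjusted p = 2.06e-15) was the largest of any named gene in this direction and is 30.7-fold. Nrgn, the postsynaptic calmodulin-binding protein neurogranin, was at 7.68, 7.93 and 7.50 against 12.17, 12.16 and 12.24, a difference of -4.49 ± 0.12 (adjusted p = 2.54e-13). Camk2a, the alpha subunit of the calcium- and calmodulin-dependent kinase of excitatory synapses, was at 6.20, 6.01 and 6.05 against 9.99, 9.85 and 9.80 (-3.79 ± 0.18, adjusted p = 1.39e-10). The 2 members that were higher in cerebellum were Neurod2, a differentiation factor also used by cerebellar granule cells, by 1.20 ± 0.10, and Camkk2, a kinase that acts on other calmodulin-dependent kinases, by 0.51.

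The other genes furthest toward hippocampus have varied roles. Ddn, the postsynaptic protein dendrin, differed by -4.10 ± 0.11, Camkv, a kinase-like protein of vesicles, by -3.85 ± 0.13 and Epha4, an ephrin receptor of dendritic spines, by -3.76 ± 0.13. Mpped1 differed by -4.10 ± 0.12, Wipf3, which acts on the actin skeleton, by -3.47 ± 0.12, and Cx3cl1, the neuronal chemokine fractalkine, by -3.58 ± 0.13. Gda, the guanine deaminase of forebrain neurons, was at 6.91 and 6.84 in the cerebella of dams 12 and 18 but at 8.41 in that of dam 15, against 11.36, 11.69 and 11.52 in hippocampus (-4.13 ± 0.18, adjusted p = 4.01e-11). Of 7 dentate granule cell genes tested, 4 were lower in cerebellum, 1 (Calb1) was higher and 2 were not called. Prox1, the factor that specifies dentate granule cells, differed by -0.89 ± 0.11 and Rasl10a by -1.82 ± 0.16. Without the pup of dam 15 a second dentate gene was called higher.

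Regional transcription factors also differed, most of the forebrain ones toward hippocampus. Of 13 forebrain patterning factors tested, 10 were lower in cerebellum, 2 were higher and 1 was not called. Lhx2, which specifies cortex and hippocampus, was at 4.93, 5.06 and 5.13 in cerebellum and 8.69, 8.68 and 8.48 in hippocampus (-3.57 ± 0.10, adjusted p = 4.69e-13). Pou3f1 differed by -3.07 ± 0.10, Mef2c by -2.47 ± 0.16 and Lmo3 by -2.08 ± 0.12. The members higher in cerebellum were Neurod2 and Id2, an inhibitor of basic helix-loop-helix factors, by 0.74. Of 35 hindbrain and cerebellar factors listed only 5 were tested, and 4 were higher in cerebellum: Zic1, Lhx1 (1.93 ± 0.09), Barhl1 (1.90 ± 0.14) and Barhl2 (0.38). Meis2, which the forebrain uses too, was lower by 1.97 ± 0.16.

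Inhibitory interneuron and neuropeptide genes lay mostly on the hippocampal side. Cck, the peptide cholecystokinin, was at 7.58, 7.67 and 7.59 in cerebellum, and its hippocampal mean was 10.96 ± 0.17 (SD, n = 3), the lowest value being 10.77 (-3.34 ± 0.09, adjusted p = 2.84e-13). Npy, neuropeptide Y, differed by -2.91 ± 0.16 and Vip, vasoactive intestinal peptide, by -2.35 ± 0.08, with no overlap between the tissues in either. Of 11 forebrain interneuron genes tested, 7 were lower in cerebellum. The transmitter-synthesis genes Gad1 (0.21) and Gad2 (-0.09) and the vesicular GABA transporter gene Slc32a1 (0.16), which inhibitory neurons of both tissues use, were not called. Reln, the secreted glycoprotein reelin that cerebellar granule cells also make, was higher in cerebellum by 1.46 ± 0.10. Of 27 neuropeptide and receptor genes, 17 were lower and 1, Penk, was higher by 0.83 (2 without the pup of dam 12 or of dam 15). Sstr1, a somatostatin receptor, differed by -2.41 ± 0.11 (-0.91 by a second probe set).

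Inhibitory receptor genes differed by subunit. Of 11 GABA-A and glycine receptor genes tested, 2 were higher in cerebellum (Gabra6 and Gabrd), 5 were lower and 4 were not called. Gabra5, the alpha 5 subunit of extrasynaptic hippocampal receptors, was at 6.22, 5.94 and 6.09 in cerebellum and 9.90, 10.07 and 10.09 in hippocampus (-3.94 ± 0.21, adjusted p = 4.01e-10). Gabra6 lay almost as far the other way. Gabrd, the delta subunit that joins alpha 6 in granule cells and alpha 4 in the dentate gyrus, was higher in cerebellum by 1.16 ± 0.16 (adjusted p = 2.01e-05). Gabrb1 differed by -1.47 ± 0.09, the glycine receptor alpha 2 gene Glra2 by -1.47 ± 0.16 (-0.52 by a second probe set), Gabrg1 by -0.47 ± 0.09 and Glrb by -0.44 ± 0.10. Gabra4 (-0.21 ± 0.09), Gabrb2 (0.05 ± 0.11), Gabre (-0.04 ± 0.08) and Gabrr2 (-0.22 ± 0.10) were not called. Quantile normalization of the 23 arrays gave Gabra4 a call, at -0.23 (adjusted p = 0.0433).

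Of 17 ionotropic glutamate receptor genes on the array 12 passed the filter on low values, and all 12 were called, 10 toward hippocampus and 2 toward cerebellum. The AMPA receptor genes Gria1 (-1.06 ± 0.12), Gria2 (-0.54 ± 0.08, and -0.96 by a second probe set) and Gria3 (-0.82 ± 0.13) were lower in cerebellum. The fourth AMPA receptor gene, Gria4, did not pass the filter and was not tested, and it lay the other way, at 7.04, 6.40 and 6.66 in cerebellum and 5.10, 5.13 and 5.01 in hippocampus. Lower in cerebellum, too, were the NMDA receptor genes Grin1 (-0.64 ± 0.10), Grin2a (-0.31 ± 0.10), Grin2b (-0.52 ± 0.12), Grin2d (-1.40 ± 0.13) and Grin3a (-0.97 ± 0.13), and the kainate receptor genes Grik4 (-0.83 ± 0.09) and Grik5 (-0.69 ± 0.11). Grik2, the kainate subunit of granule cells, was higher by 1.16 ± 0.10. Grin2c, the NMDA subunit of mature granule cells, was at 10.24, 8.89 and 10.33 in cerebellum and 9.49, 8.80 and 9.66 in hippocampus. The tissues overlapped, because both arrays of the pup of dam 15 were low, and the paired difference of 0.50 ± 0.14 (adjusted p = 0.00716) was lost without the pup of dam 12 (0.38, adjusted p = 0.0754), without that of dam 18 (0.42, adjusted p = 0.0629) and in the fit that ignores pairing (adjusted p = 0.122). A second probe set of Grin1 lay at 0.16. The call of Grin2a was lost without the pup of dam 12 (-0.30, adjusted p = 0.0606) or of dam 15 (-0.28, adjusted p = 0.0734).

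Metabotropic glutamate receptor genes were divided as well. Grm4 was higher in cerebellum by 2.20 ± 0.24 (adjusted p = 1.41e-06), with within-pup differences of 2.74, 1.00 and 2.88 in the pups of dams 12, 15 and 18. Grm7 (-1.57 ± 0.10), Grm5 (-0.68 ± 0.12), Grm3 (-0.64 ± 0.10) and Grm2 (-0.49 ± 0.11) were lower in cerebellum, and Grm8 (-0.03 ± 0.07) was not called. The Homer scaffolds, which tether group I receptors, differed by gene. Homer3 was higher in cerebellum by 1.64 ± 0.18 and Homer1 differed by -0.97 ± 0.10 (-1.03 and -0.59 by other probe sets). Without the pup of dam 12, Homer3 was higher by 2.05. Homer2 was higher by 0.22 ± 0.08 (adjusted p = 0.0278), a call lost without the pup of dam 12 (0.18, adjusted p = 0.142), without that of dam 18 (0.20, adjusted p = 0.114), in the unpaired fit (adjusted p = 0.249) and in a paired fit of the 6 arrays alone (adjusted p = 0.0742).

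**Figure D4:**
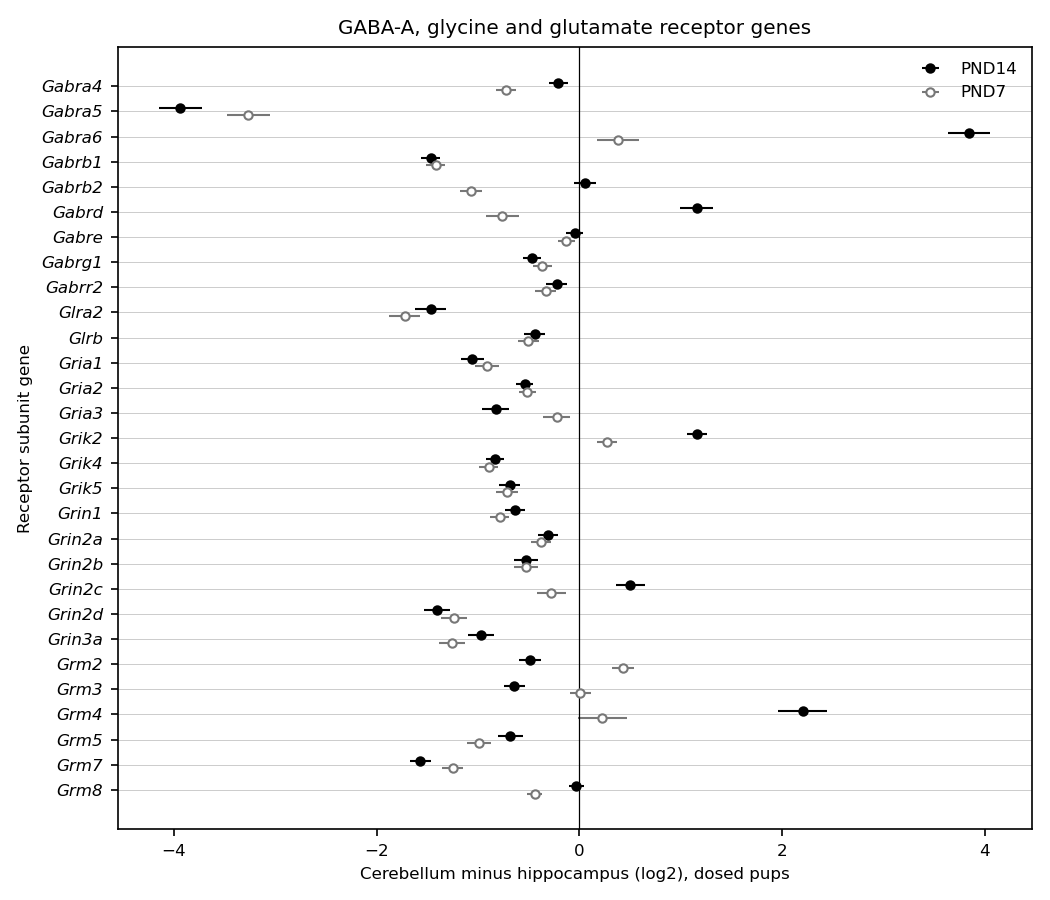
Tissue difference (x axis, cerebellum minus hippocampus, log2, with limma SE bars, 3 pups per age) of GABA-A, glycine and glutamate receptor genes (y axis) in dosed pups at PND14 (filled) and PND7 (open). Gabra6 and Gabra5 are the extremes at PND14, and Gabra6, Gabrd and Grm4 lie further to the right than at PND7.

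Ion channel and calcium genes went both ways. Of 34 potassium and HCN channel genes, 9 were higher in cerebellum and 11 lower. Kcnk1, a leak channel, was higher by 2.11 ± 0.10 and Kcnc1, a fast-spiking channel, by 1.72 ± 0.11, while Kcnip2, which binds A-type channels, was lower by 2.24 ± 0.10 and Kcng2, a modulatory subunit, by 1.94 ± 0.09. Of 62 calcium genes, 17 were higher and 29 lower. Those higher were led by Car8 and Pvalb, and those lower by Nrgn, Camkv and Camk2a. Among Camk2 genes, Camk2a and Camk2b (-1.29) were lower in cerebellum, Camk2g was lower by 0.57 and Camk2d was higher by 1.95.

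Most synaptic vesicle genes called were lower in cerebellum. Of 37 tested, 21 were lower, 8 higher and 8 not called, with a median of -0.39. Syt5, a synaptotagmin, differed by -1.88 ± 0.08 and Stx1a, a syntaxin of the fusion complex, by -1.56 ± 0.09. Cadps2, a vesicle priming factor of granule cells, was higher by 2.24 ± 0.19, and Unc13c, a priming factor of the cerebellum, by 1.48 ± 0.14. Without the pup of dam 12, 5 were called higher.

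Glial genes differed in direction by cell type. Of 16 oligodendrocyte and myelin genes, 8 were higher in cerebellum, all of them genes of myelinating cells, and Pdgfra (-0.97), Cspg4 (-0.59) and Olig1 (-0.58) were lower, the former pair being markers of precursors. The pup of dam 15 had low myelin genes in hippocampus alone: the list there lay 1.13 below the mean of the other pups, against 0.08 below in cerebellum. Mobp, a myelin protein, was at 10.84, 10.61 and 10.88 in cerebellum and at 9.75, 7.98 and 10.24 in hippocampus, higher by 1.45 ± 0.27 (adjusted p = 0.000275), and by 0.86 (adjusted p = 0.0026) without that pup. Ugt8, an enzyme of myelin lipid synthesis, was higher by 1.25, and by 0.71 without that pup. Mbp, myelin basic protein, was at 13.18, 12.95 and 12.99 against 12.64, 11.42 and 12.88. Its difference of 0.72 ± 0.20 (adjusted p = 0.0061) was lost without that pup (0.32, adjusted p = 0.134), and a second probe set gave 1.53. Then 6 myelin genes were called higher and 4 lower.

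Of 8 genes listed for Bergmann glia, the radial astrocytes of the cerebellum, that were tested, 3 were higher in cerebellum: Gdf10 (2.27 ± 0.11), Septin4 (1.82 ± 0.09) and Hopx (1.58 ± 0.08). Another 4 were lower, Gria1, Ptprz1 (-0.73), Vegfa (-0.45) and Fabp7 (-0.38), and the median of the list was -0.105. Of 17 astrocyte genes, 4 were higher and 7 lower. Slc1a2, the main astrocytic glutamate transporter of the forebrain, differed by -1.39 ± 0.08, Ntsr2 by -1.41 ± 0.12 and Clu by -1.61 ± 0.24, while the bicarbonate transporter gene Slc4a4 was higher by 1.32 ± 0.11. Clu differed by -1.21 without the pup of dam 12. Gfap was not called (0.15 ± 0.13, adjusted p = 0.331, and 0.34, adjusted p = 0.0491, without the pup of dam 12). Of 13 microglial genes, 0 were higher and 10 lower, by 0.30 to 0.81. A second probe set of P2ry12 lay outside this range, at -1.29. Ctss, a lysosomal protease, was at 8.75, 9.71 and 8.53 in cerebellum and 9.49, 10.69 and 9.24 in hippocampus (-0.81 ± 0.10, adjusted p = 7.41e-06). The tissues overlapped because the pup of dam 15 was high in both, and 7 microglial genes were lower without the pup of dam 12 and 6 without that of dam 18. Of 12 endothelial and pericyte genes, 2 were lower, Cspg4 and the glucose transporter gene Slc2a1 (-0.42 ± 0.08, and adjusted p = 0.0727 in the unpaired fit), 10 were not called, and 4 were lower without the pup of dam 15.

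Tissues that border the brain gave a divided picture. Of 17 meningeal and fibroblast genes, 10 were higher in cerebellum (58.8%, against 29.5% of all genes), Dcn was lower by 0.64 and 6 were not called. Igf2, a growth factor of meninges and choroid plexus, was at 10.63, 10.91 and 11.32 in cerebellum and 10.13, 9.26 and 9.53 in hippocampus (1.32 ± 0.23, adjusted p = 0.000179), and the collagen gene Col1a2 was higher by 1.22 ± 0.27. Without the pup of dam 18, 6 meningeal genes were called higher, and without that of dam 15, 7. The summed linear signal of the meningeal list ran from 7600 to 13400 in the cerebella and from 5340 to 8490 in the hippocampi. Of 8 choroid plexus genes tested, Otx2 (2.34 ± 0.19), Enpp2 (2.26 ± 0.39) and Sostdc1 (1.26 ± 0.35, and 0.98, adjusted p = 0.0669, without the pup of dam 18) were higher (37.5%) and 5 were not called. Ttr differed by 2.57 ± 1.11 (adjusted p = 0.0605) and was not called, and it was higher by 4.52 ± 1.05 (adjusted p = 0.00212) without the pup of dam 12. Leaving that pup out moved Otx2 little (to 2.44), and Enpp2 (to 2.78) and Sostdc1 (to 1.70) more. Without that pup 5 choroid plexus genes were called, and without that of dam 18 2 were. The summed linear signal of the choroid plexus list was 1930 to 12800 in cerebellum and 1570 to 1880 in hippocampus. What part these bordering tissues have in the differences of other genes was not tested.

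Of 3 red cell genes, 2 were higher in cerebellum. Hbb, a beta globin, was at 12.34, 13.63 and 12.31 in cerebellum and 11.91, 12.83 and 11.87 in hippocampus (0.56 ± 0.13, adjusted p = 0.00213). The pup of dam 15 was high in both tissues, and the unpaired fit did not call the difference (adjusted p = 0.131). Alas2 differed by 0.66 ± 0.22 (adjusted p = 0.0209), a call lost without that pup (0.17, adjusted p = 0.435) and in the unpaired fit (adjusted p = 0.262). Without the pup of dam 15, 1 red cell gene was called, and without that of dam 12, 3 were, Slc4a1 among them (0.47, adjusted p = 0.0194).

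**Figure D5:**
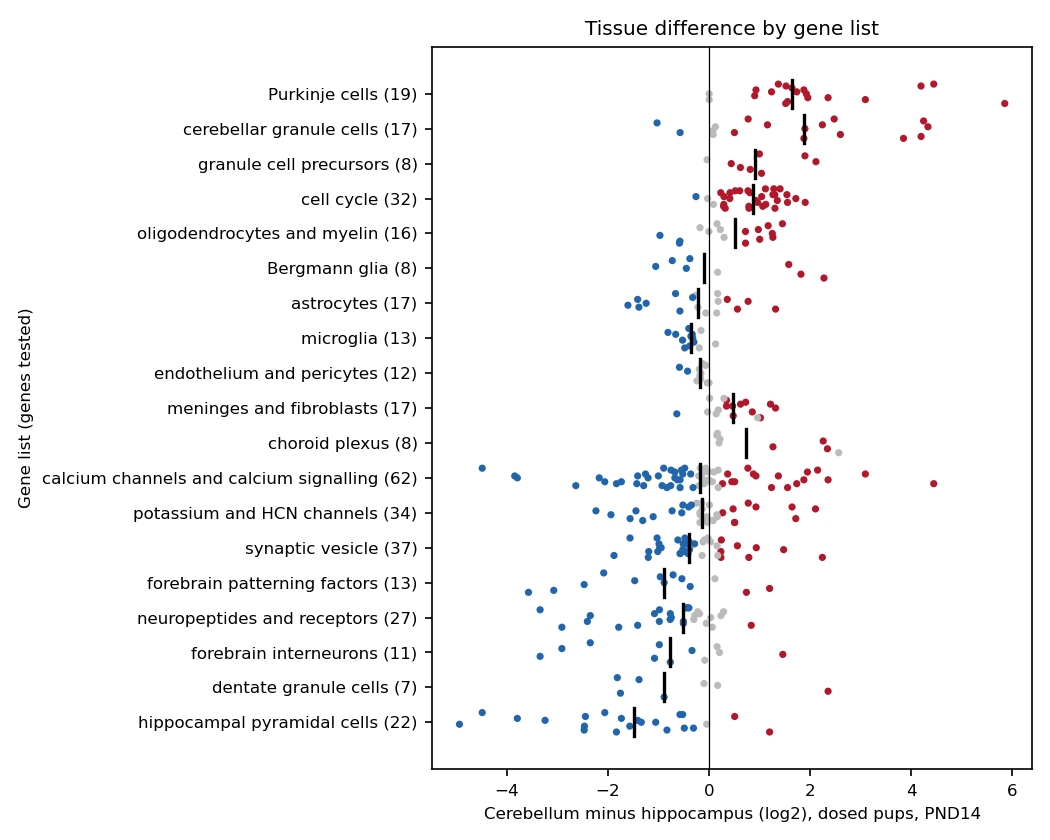
Tissue difference (x axis, cerebellum minus hippocampus, log2) of each gene tested in 19 lists (y axis, with the number of genes), in red or blue where called and in grey otherwise, with a bar at each list's median. Purkinje and granule cell genes spread furthest to the right and pyramidal cell genes furthest to the left, while vascular genes lie close to 0.

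Lists for known targets of polychlorinated biphenyls were examined next. The mixture is known to lower circulating thyroid hormone, which enters cells, binds nuclear receptors and drives target genes. Of 22 thyroid genes tested, 7 were higher in cerebellum (31.8%, against 29.5% of all genes), 9 lower (40.9%, against 25.5%) and 6 not called, with a median of -0.02. Slco1c1, which carries thyroxine into the brain, was lower by 1.00, the receptor gene Thra by 0.59 and the partner receptor gene Rxrg by 0.82 ± 0.08. Of the direct targets, Hr, a corepressor, was higher by 0.69 ± 0.12 (adjusted p = 0.000173) with overlap of the tissues, at 8.95, 7.54 and 8.75 in cerebellum and 7.90, 7.36 and 7.90 in hippocampus. Klf9, a zinc finger factor, was not called (0.06 ± 0.10, adjusted p = 0.636).

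The aryl hydrocarbon receptor is a sensor of dioxin-like compounds that pairs with Arnt proteins. Of 16 genes of this pathway and of xenobiotic response, 1 was higher in cerebellum, 7 were lower and 8 were not called, so 50% were called, against 55.1% of all genes, with a median of -0.245. Arnt2, the neuronal partner, differed by -1.11 ± 0.08, the antioxidant gene Srxn1 by -0.96 ± 0.09, Gstm1, a glutathione transferase, by -0.74 ± 0.11, Cyp1b1 by -0.56 and Ahr itself by -0.30. Tiparp, a target that feeds back on the receptor, was higher by 0.71 ± 0.09. Cyp1a2 (-0.10) and Nqo1 (-0.16) were not called.

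Activity and hormone genes completed the lists. Of 20 immediate early and activity genes, 12 were lower in cerebellum and 3 higher, with a median of -0.66. Nr4a3 differed by -3.35 ± 0.13 (-0.51 by a second probe set), Vgf by -1.67 ± 0.14 and Egr1 by -1.74 ± 0.26, while Dusp5, a phosphatase that switches off ERK, was higher by 2.48 ± 0.14. Without the pup of dam 15, Egr1 differed by -2.38. Of 12 nuclear steroid receptor genes, 3 were higher and 4 lower, and Nr3c2, the mineralocorticoid receptor of hippocampal neurons, stood out at 6.39, 6.11 and 6.63 in cerebellum against 9.12, 8.85 and 8.67 in hippocampus (-2.50 ± 0.13, adjusted p = 2.63e-10). Of 14 neurotrophin genes, 5 were higher and 3 lower, with Ngfr, the low-affinity neurotrophin receptor, higher by 1.57 ± 0.09 and Ret, a receptor of GDNF family ligands, by 1.46 ± 0.13. Ret was at 8.70 in the cerebellum and 6.98 in the hippocampus of the pup of dam 15, above the other pups in both. Of 17 monoamine and acetylcholine receptor genes, 11 were lower and Adra2c was higher by 0.49. Htr5b differed by -2.27 ± 0.10, and Htr2c, which choroid plexus also expresses, by -1.98 ± 0.32 (-0.49 by a second probe set), with cerebellar values of 5.91, 7.27 and 7.39 in which that of dam 12 was lowest. Without the pup of dam 12, Htr2c differed by -1.57.

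The tissue difference was then set against that of undosed pups of the same age, to ask whether dosing altered it. By the interaction term of limma's paired fit, with 3 dosed and 2 undosed pups, 0 of 10330 probe sets passed (0%), and 268 had an unadjusted p under 0.05. Those 268 are a share below 0.05, the share that no effect at all would give on average. The smallest adjusted p was 1. The median half-width of a single gene's 95% interval was 0.31 before any adjustment for the number of tests, and larger terms, such as those given next, did not pass. The genes with the smallest unadjusted p were Hopx (1.58 in dosed and 2.18 in undosed pups, interaction -0.61 ± 0.13), Uncx (2.53 and 1.87, interaction 0.66 ± 0.17) and Crtac1 (-2.37 and -2.96, interaction 0.59 ± 0.16). Igfbp3 (interaction 0.45 ± 0.12) and C2cd2 (0.42 ± 0.12) came next. The leading genes had values side by side such as 5.85 and 5.61 for Pcp2, 3.85 and 4.11 for Gabra6, -4.94 and -5.07 for Crym and -4.49 and -4.20 for Nrgn. Leaving out the undosed pup of dam 7 gave 1 call, the Xist probe set (-1.82); the undosed pup that remained was the one with high Xist. A p that misses the threshold does not show that the tissue difference is the same with and without dosing.

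The tissue difference was also set against that of dosed littermates at PND7. The interaction with age passed the test in 1061 of 7474 genes (14.2%), 455 with a positive term (6.09%) and 606 with a negative one (8.11%). By probe set the share was 14.4%. The pups of both ages come from the same 3 litters, which the pup block does not take into account. With the dam as a second block, an alternative chosen after seeing the data that leaves 3 residual degrees of freedom, 997 genes passed, 914 of them among the 1061. Of the 1061, 787 were also called between the tissues at PND14. In 385 of the 787 the difference lay further from 0 at PND14 than at PND7 with the same sign, in 205 it lay nearer to 0, and in 197 it had the opposite sign at PND7. The sign at PND7 was counted at any size, so the 197 include differences near 0 at that age, such as 0.09 for Fibcd1. Gabra6 had the largest positive term, 3.47 ± 0.29 (adjusted p = 3.69e-06), from a difference of 0.38 at PND7 to 3.85 at PND14. Pvalb went from 0.54 to 3.09 (2.55 ± 0.11, adjusted p = 2.41e-09) and Slc1a6 from 1.86 to 4.20 (2.34 ± 0.13, adjusted p = 5.78e-08). Syt4, a synaptotagmin of dense-core vesicles, turned from -1.46 to 0.94 (to 0.30 by a second probe set), and Atp2a3, a calcium pump of Purkinje cells, from -0.41 to 1.88. Of 17 granule cell genes 10 passed with a positive term and 0 with a negative one, and the same counts held for 19 Purkinje genes.

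On the hippocampal side, Fibcd1 moved from 0.09 at PND7 to -2.45 at PND14 (-2.54 ± 0.22, adjusted p = 4.08e-06), Wipf3 from -1.17 to -3.47, Wfs1, a membrane protein of CA1 pyramidal cells, from -0.58 to -2.47 and Cracdl from -1.50 to -3.29. Of 22 pyramidal genes 11 passed with a negative term and 3 with a positive one. Cell cycle genes were nearer between the tissues at the later age: 27 of 32 passed with a negative term and 0 with a positive one, and Mki67 went from 2.68 to 1.31. Mbp went from 2.61 to 0.72 (age term -1.88), with the low hippocampal value of the pup of dam 15 in the PND14 mean. Without that PND14 pup the fall was larger, to 0.32, with an age term of -2.28. Receptor genes called at both ends of their family differed in timing: Gabra6 and Gabrd (-0.76 at PND7, 1.16 at PND14) had age terms that passed, whereas Gabra5 was already at -3.27 at PND7. Its age term of -0.67 ± 0.30 did not pass (adjusted p = 0.147), but did with the dam as a second block (adjusted p = 0.021). Crym went from -5.04 at PND7 to -4.94, Pax6 from 4.20 to 4.33, Lhx2 from -3.49 to -3.57 and Cck from -3.27 to -3.34. The age terms of these last 4 genes did not pass the test in either fit.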

How the data were processed

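The 24 arrays measured total RNA of cerebellum or hippocampus. The authors deposited 1 expression value for each probe set and array, which was taken to be log2 because of its range. What software and normalization made them is not given in the sources used here. Of 15923 probe sets, 57 control sets were left out. The platform annotation gave 1 symbol to 12783 of the other 15866, several to 312 and none to 2771, and 12748 matched RefSeq with 0 symbols changed. Arrays have no count depth, and their number limits the precision.

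With limma 3.58.1 in R 4.3.3, the deposited values of 23 arrays were fitted with the pup as a block and 1 tissue difference per age and dosing group. This left 7 residual degrees of freedom and a prior of 8.2. Tests covered the probe sets whose value exceeded the 40th percentile in 3 or more arrays (10330, or 7474 genes with 1 symbol). Tests were 2-sided. The dam numbers pair the tissues because the labels give 1 pup per litter and age. The departures of a pup from its group correlated between its tissues at 0.361, 0.574 and 0.368 for dams 12, 15 and 18, and over 0.1 in 9 of 11 pups. The comparison has 3 pups. Its p-values rest on the spread of within-pup tissue differences over the 11 pups of the fit, not on these 3 alone.

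Named genes are the 12 largest differences each way among called genes whose pups have 1 sign and whose tissues do not overlap, the 5 largest interaction terms each way (5 by smallest p for dosing), 30 fixed genes (25 tested), the 4 largest of each of 31 lists, and all receptor genes. Other list members named were chosen after their values were seen. Of 154 named genes, 29 had several probe sets, and 0 had probe sets called in both directions. The comparison, lists and genes were chosen with earlier results of these data known. The code was tested on simulated data. Alternatives were no block, quantile normalization, all 24 arrays, only 6 arrays, other filters, an intensity trend, the median probe set of a gene, each dam left out and, for age, the dam as a second block.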

Additional observations from a re-analysis of the deposited data

Results flagged for a closer look

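Among the 25 fixed genes tested and the 5 largest age terms each way, 24 genes had a tissue difference in dosed pups at PND14 that differed from that at PND7 by the interaction term of limma's paired fit, out of 1061 such genes in all. Genes outside this choice had terms of similar size, such as Fat2 (2.17), Grm4 (1.98) and Ngfr (-1.53). Each value is the PND14 difference minus the PND7 difference on the log2 scale, with 3 pups at each age. The positive terms were led by Gabra6 (3.47), Pvalb (2.55), Syt4 (2.39), Slc1a6 (2.34) and Atp2a3 (2.29, as 2.285 with an SE of 0.20). Gabrd (1.92), Pcp2 (1.58, as 1.585 with an SE of 0.14) and Hr (1.48) followed. Smaller positive terms were those of Zic1 (0.80), Grin2c (0.78), Cbln1 (0.75), Prox1 (0.59), Car8 (0.58), Klf9 (0.53), Neurod1 (0.50) and Neurod2 (0.49). The negative terms were those of Fibcd1 (-2.54), Wipf3 (-2.30), Wfs1 (-1.89), Mbp (-1.88), Cracdl (-1.78), Camk2a (-1.47, as -1.465 with an SE of 0.26), Mki67 (-1.38) and Nrgn (-0.98).

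Adjusted p-values ran from 2.41e-09 for Pvalb to 0.0345 for Zic1. The 8 smaller positive terms had adjusted p-values of 0.0156 to 0.0345, and each of them was lost when at least 1 of the 6 pups was left out. Without the PND14 pup of dam 12 the terms of Cbln1 (0.44, adjusted p = 0.107), Neurod1 (0.46, 0.077), Grin2c (0.66, 0.0628), Neurod2 (0.46, 0.0752) and Klf9 (0.46, 0.0699) did not pass. Without the PND14 pup of dam 15 those of Car8 (0.42, adjusted p = 0.0997), Zic1 (0.59, 0.127) and Neurod2 (0.44, 0.0836) did not pass. Without that of dam 18 those of Prox1 (0.53, 0.062), Zic1 (0.69, 0.12), Neurod1 (0.46, 0.0908), Grin2c (0.69, 0.0672) and Klf9 (0.52, 0.0567) did not. With the dam as a second block, all 24 terms passed.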

How the results depend on the processing

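Of the named tissue differences recomputed, 1881 values kept direction and call, 73 lost the call, 8 gained it and 0 reversed; for the age terms 366 kept and 52 lost it and 1 (Gabra5) gained it, and for the dosing terms 358 kept theirs. Main counts were 5746 probe sets for tissue (3144 higher, 2602 lower), 0 for dosing and 1485 for age (694 positive, 791 negative). Ignoring the replicate block gave 5495, 0 and 1235, and 6 named genes lost their tissue call: Igfbp3, Grin2c, Hbb, Slc2a1, Alas2 and Homer2. With all 24 arrays quantile normalized, tissue calls were 3527 with the replicate block (1871 higher, 1656 lower) and 3465 without it (1825 and 1640), and age calls were 248 with the block (156 positive, 92 negative, 94 over 2-fold) and 314 without it (194, 120 and 98). The cause was not tested, but the array of dam 13 enters the shared spread there. Quantile normalization of 23 arrays gave 5847 and 1699, and the 6 arrays alone 4870 paired and 3915 unpaired. Leaving out 1 dam gave 4922 to 5196 tissue calls, 0 to 1 dosing calls (negative calls 0 to 1, over 2-fold 0 to 1, the 1 being Xist without undosed dam 7) and 523 to 769 negative age calls, lowest without the PND7 pup of dam 12 (523) and the PND14 pup of dam 18 (526). With 1 undosed pup left, it was assumed to vary like the other groups. List counts were also recomputed without each dam, an alternative chosen after seeing the data. With the dam as a second block, also chosen then, 1398 age terms passed. With 3 dosed and 2 undosed pups, small dosing terms could be missed.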

Other observations

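The largest tissue difference of all belonged to a probe set without a gene symbol in the annotation, 1368632_at. It was at 4.52, 4.61 and 4.63 in the cerebella of dams 12, 15 and 18 and had a mean of 10.67 ± 0.33 (SD, n = 3) in their hippocampi, a difference of -6.08 ± 0.11 (SE, limma adjusted p = 3.23e-15). Its difference was -6.10 in undosed pups at PND14 and -6.23 in dosed pups at PND7. Another, 1389712_at, was higher in cerebellum by 3.71 ± 0.14. Of the 100 probe sets with the largest differences, 78 have 1 symbol.

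The following genes were chosen after their values in the pup of dam 15 were seen, stand for no group and are given as values only. Cyp51, a sterol demethylase, was at 8.47 in its cerebellum and 8.98 in its hippocampus, against 9.96 and 9.77 in the other cerebella and 9.71 and 9.84 in the other hippocampi. Msmo1, a sterol oxidase, was at 8.41 and 9.10 against 9.55 and 9.34, and 9.96 and 9.96. Hspa5, a chaperone of the endoplasmic reticulum, was at 9.40 and 9.48 against 10.28 and 10.57, and 10.30 and 10.26. Higher in this pup in both tissues was Hmox1, haem oxygenase, at 8.96 and 8.57 against 7.15 and 7.01, and 7.41 and 7.41. Slco1c1, the thyroxine carrier, was at 7.61 and 8.53 against 8.81 and 8.59, and 9.73 and 9.76. The 3 pups received the same labelled dose, and no test is given for 1 pup.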
